A study of Saccharomyces cerevisiae with 8 samples.

Results

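The genes described here encode the enzymes of sugar breakdown in budding yeast, Saccharomyces cerevisiae: glycolysis, ethanol fermentation with its glycerol and acetate branches, and the pentose phosphate pathway. They are 34 genes, chosen by name from knowledge of these pathways. A gene counted as measured where the platform annotation assigned at least 1 probe set to it alone, and 33 of the 34 did so, among 5656 measured genes in all. TDH2, 1 of 3 genes for glyceraldehyde-3-phosphate dehydrogenase, had no such probe set and is not analysed here. A further 3 probe sets shared between a member and another gene were left unused.

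Glycolysis splits glucose into pyruvate and yields ATP and NADH. In yeast growing on glucose most pyruvate is decarboxylated to acetaldehyde and reduced to ethanol, which returns the NADH to NAD. A part of the sugar leaves as glycerol, made with NADH, or as acetate, whose synthesis in the cytosol makes NADPH. The pentose phosphate pathway oxidises glucose 6-phosphate, which also makes NADPH, and rearranges sugars of different lengths into ribose 5-phosphate for nucleotides and back into glycolytic intermediates. Many of these steps have several isoenzyme genes, of which 1 usually dominates on glucose while others respond to stress or to other carbon sources.

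RNA was measured on 8 Affymetrix YG_S98 arrays, 4 labelled V81G and 4 labelled wild type. All strains were haploid, derived from W303a, with both native eIF5A genes, HYP2 and ANB1, disrupted according to the labels, and lived on human EIF5A1 carried on a plasmid. The plasmid gene was the wild-type form in 1 group and the V81G point mutant, which makes growth temperature-sensitive, in the other. eIF5A is a translation factor that carries the modified residue hypusine. Every culture was grown at 25 °C, a permissive temperature for the mutant, to early log phase, so the comparison concerns the strains before any heat shift. The labels call the arrays biological replicates from isogenic strains, and any other feature that the strains of a group share cannot be told apart from V81G itself.

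All values below are log2 intensities, and a difference is the mean of the V81G arrays minus that of the wild-type arrays. HYP2 read 15.42 ± 0.01 (SD, n = 4) in the wild-type arrays and 12.02 ± 0.23 (SD, n = 4) in the V81G arrays. ANB1 was bright in both groups, at 14.04 ± 0.13 in the wild-type arrays and 14.18 ± 0.20 (SD, n = 4) in the V81G arrays (limma adjusted p = 0.595). The signals of both genes go against their description as disrupted in every strain. The groups are therefore named by their labels throughout. Run sheets placed replicates 1 and 2 of both groups on hybridization day 1 and replicates 3 and 4 on day 2. Each day thus held other biological replicates, so the day cannot be told apart from the cultures used. Across probe sets, arrays of 1 group correlated at r = 0.978 to 0.991 within a day and at 0.953 to 0.981 between days, and arrays of different groups at 0.921 to 0.953. The 3′ minus 5′ signal of the actin control was higher in the V81G arrays, from 1.17 to 1.40 against 0.71 to 1.10, while the ranges of the other 2 such controls overlapped. Its part in the results was not tested. In the wild-type arrays STE2, the alpha-factor receptor gene of MATa cells, averaged 8.11, under the 20th percentile of all probe-set means (8.74), and MF(ALPHA)1, a pheromone gene of MATalpha cells, averaged 14.47. In the V81G arrays STE2 was higher, at 9.26 (adjusted p = 4.1e-04), as was the alpha-agglutinin gene SAG1, at 13.17 against 11.40 (adjusted p = 4.3e-05), and MF(ALPHA)1 averaged 13.86. Other MATa genes were not all dim: MFA1 averaged 10.42 and MFA2 11.40 in the wild-type arrays, while BAR1 averaged 8.58. In the V81G arrays these read 10.47, 11.71 and 8.81, and the MATa gene STE6 was higher by 0.61 (adjusted p = 0.0362). Of other MATalpha genes STE3 averaged 11.21 and MF(ALPHA)2 8.80 in the wild-type arrays, and 11.47 and 9.16 in the V81G arrays. The bright MATalpha genes go against the name W303a if its last letter stands for the mating type, of which the labels say no more. MFA1 and MFA2 were well below MF(ALPHA)1 but above the 20th percentile in both groups, so the markers do not settle the mating type.

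In the arrays labelled V81G, 8 of the 33 measured genes were lower and 1 was higher at a limma adjusted p under 0.05. The 8 were PGI1 and TDH1 of glycolysis, ADH5 of fermentation, ALD6 of the acetate branch and GND1, RPE1, TKL1 and TAL1 of the pentose phosphate pathway, and the 1 that rose was ADH4. These counts are 24.2% and 3.03% of the 33, where 12.3% of all 5656 genes were called lower and 9.21% higher. The differences of the 33 ran from -1.18 to 1.05 with a median of -0.26, and 29 were below 0 (87.9%). Over all genes the median was -0.08 and 58.8% of differences were below 0. The ranges of the groups did not overlap for 12 genes that were lower (36.4%, against 16.7% of all genes) and for 1 that was higher (11.5% of all genes). All 33 lay above the 40th percentile of probe-set means. With only probe sets above it fitted, 18.2% of genes were lower and 11.1% higher, and 9 and 1 of the 33. Of the 182 genes within 1 of the highest value of the table, 21.4% were lower. Differences were below 0 for 80.2% of them, and 34.1% were lower without overlap. For the 14 members among them these shares were 21.4%, 92.9% and 42.9%.

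**Figure D1:**
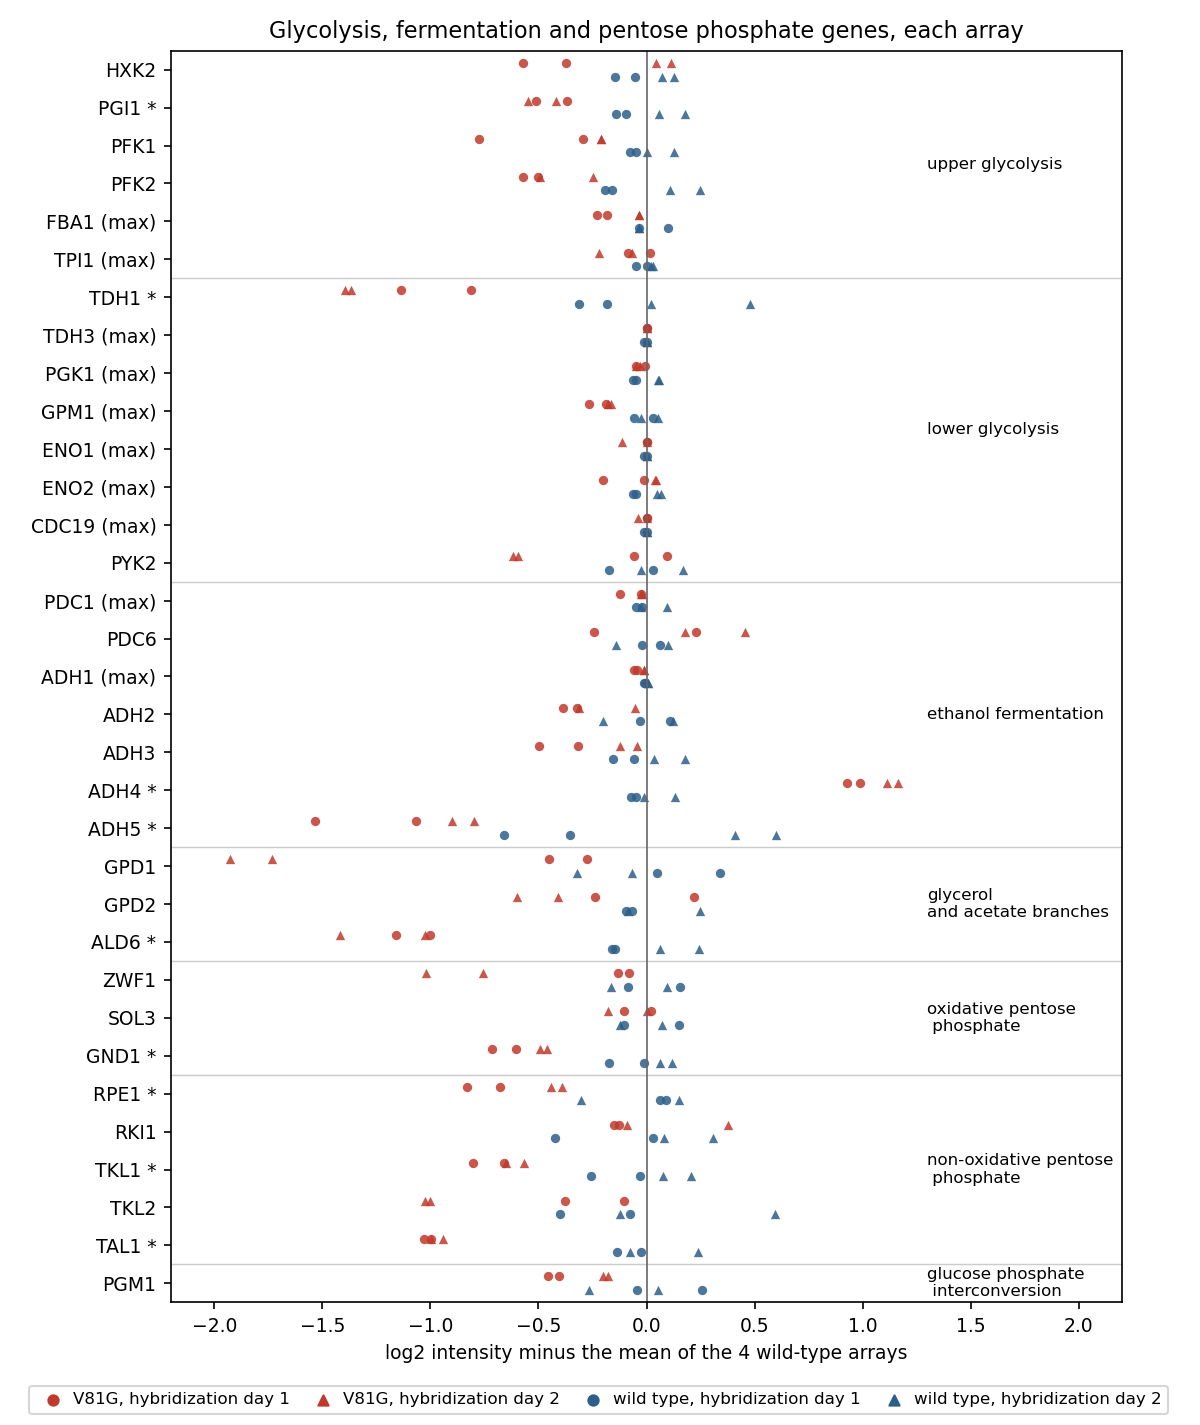
The horizontal axis shows the log2 intensity of each array minus the mean of the 4 wild-type arrays, for each of the 33 measured genes grouped by pathway. Colour marks the group and shape the hybridization day, an asterisk marks genes past the threshold and "(max)" those within 0.5 of the highest value of the table. The V81G points of ADH4 lie right of all wild-type points, and those of TDH1, ALD6, GND1, TKL1 and TAL1 lie left of them.

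The deposited values have a ceiling, and many glycolytic genes sat at it. The highest log2 value of the whole table was 15.43, and on each array between 17 and 42 probe sets shared exactly that array's own maximum. TDH3, encoding the main glyceraldehyde-3-phosphate dehydrogenase, was at this maximum on all 8 arrays, so no difference can be read from it. ENO1, an enolase gene, was at it on 7 arrays. The others with at least 1 such array were ADH1 on 3, PGK1 and CDC19 on 2 each and TPI1 on 1.

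Within 0.5 of the highest value of the table lay 10 of the 33 genes: FBA1, TPI1, TDH3, PGK1, GPM1, ENO1, ENO2, CDC19, PDC1 and ADH1. None of the 10 was called, and their differences lay between -0.20 and 0.003. Of all 103 genes that bright, 11.7% were called, 1 higher and 11 lower. Of the 38 genes at the maximum of at least 1 array, 1 was called. A change above the ceiling cannot be seen in these values. Among the other 23 genes 8 were lower (34.8%) and 1 higher (4.35%), with a median of -0.45, against 12.3% and 9.21% of all genes. Leaving out the 10, of which none was called, raises these shares. Just outside the limit stood PGI1, with a highest value of 14.91, and TDH1, with 14.83. Just inside it stood PDC1, with 15.09.

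In upper glycolysis, from glucose to triose phosphates, 1 of 6 genes fell (16.7%, against 12.3% of all genes) and the other 5 did not pass. All 6 differences were below 0 (median -0.28). So were 58.8% of those of all genes and 80.2% of those of genes within 1 of the highest value of the table. PGI1 (YBR196C), phosphoglucose isomerase, read 14.22, 14.36, 14.31 and 14.18 in V81G replicates 1 to 4 and 14.63, 14.59, 14.78 and 14.91 in wild-type replicates 1 to 4. Every V81G array was below every wild-type array, and PGI1 fell by 0.46 ± 0.12 (SE), with an adjusted p of 0.0272. The call was lost without V81G 1, 3 or 4 or without wild type 3 or 4 (adjusted p of 0.0564 to 0.0758), after quantile normalization (-0.32, adjusted p = 0.0745) and on day 1 alone (-0.32, adjusted p = 0.238).

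PFK2 (YMR205C), the beta subunit of phosphofructokinase, read 13.68, 13.75, 13.76 and 14.00 against 14.09, 14.06, 14.36 and 14.50 in the wild-type arrays. These ranges did not overlap. Its difference of -0.45 ± 0.14 (SE) missed the threshold (adjusted p = 0.0556), and passed in 6 of 18 alternatives. These were a block for same-numbered arrays (adjusted p = 0.0354) or for the day (0.0150), both filters on dim probe sets (0.0495 and 0.0413), a variance trend (0.0370) and leaving out wild type 2 (0.0445), while the other leave-outs gave adjusted p-values up to 0.130. PFK1 (YGR240C), the alpha subunit, was likewise below the wild-type range in every V81G array, at 13.33 to 13.90 against 14.03 to 14.23. Its difference of -0.37 had a 95% interval of -0.71 to -0.03 and an adjusted p of 0.132.

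HXK2 (YGL253W), the main hexokinase on glucose and also a factor in glucose repression, differed by -0.20 (95% interval -0.58 to 0.19, adjusted p = 0.512). It read 12.88 and 13.07 in the V81G arrays of day 1 and 13.56 and 13.49 in those of day 2, against 13.30 to 13.58 in the wild-type arrays. FBA1, the aldolase gene, and TPI1, triose phosphate isomerase, were near the ceiling, with differences of -0.12 and -0.09 (adjusted p = 0.548 and 0.655).

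In lower glycolysis, from glyceraldehyde 3-phosphate to pyruvate, TDH1 alone fell among 8 measured genes (12.5%, against 12.3% of all genes), and the median was -0.03. TDH1 (YJL052W) encodes the glyceraldehyde-3-phosphate dehydrogenase isoenzyme known for its induction as growth slows and under stress. It read 13.22, 13.54, 12.96 and 12.99 in the V81G arrays and 14.17, 14.04, 14.38 and 14.83 in the wild-type arrays. The groups were well apart, and TDH1 fell by 1.18 ± 0.20 (SE), or 2.26-fold, with an adjusted p of 0.0034. Its difference was -0.72 on day 1, which did not pass alone (adjusted p = 0.0577), and -1.63 on day 2.

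GPM1 (YKL152C), phosphoglycerate mutase, read 14.94 to 15.04 in the V81G arrays and 15.15 to 15.26 in the wild-type arrays. The ranges did not overlap, but the difference of -0.20 ± 0.11 (SE) did not pass (adjusted p = 0.251), and the gene is near the ceiling. PGK1, phosphoglycerate kinase, ENO1 and ENO2, the enolases, and CDC19, the main pyruvate kinase, differed by -0.03 to -0.008, with adjusted p-values of 0.881 to 0.974. ENO2 lies on chromosome VIII, whose 259 genes had a median difference of 0.46, against -0.09 for genes of the other nuclear chromosomes.

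PYK2 (YOR347C), a second pyruvate kinase gene known to be repressed by glucose, was far from the ceiling. It read 10.72 and 10.57 in the V81G arrays of day 1 and 10.03 and 10.01 in those of day 2, against 10.46 to 10.79 in the wild-type arrays. The day 1 values lay inside the wild-type range and the day 2 values below it. Over both days its difference was -0.29 ± 0.19 (SE, adjusted p = 0.342).

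Ethanol fermentation held the 1 gene that rose. ADH4 (YGL256W) encodes an alcohol dehydrogenase of a family unrelated to ADH1, known to be induced when zinc is scarce. It read 12.58, 12.64, 12.76 and 12.81 in the V81G arrays and 11.60, 11.58, 11.78 and 11.64 in the wild-type arrays. All V81G arrays were above all wild-type arrays, with a rise of 1.05 ± 0.12 (SE), or 2.07-fold (adjusted p = 3.9e-04), and the difference was 1.02 on day 1 and 1.08 on day 2. A dimmer ADH4 probe set, at 8.10 and 8.09 in the groups and so under the 20th percentile, differed by 0.01 ± 0.20 (adjusted p = 0.980). Averaging both probe sets gives 0.53 (adjusted p = 0.0195).

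ADH5 (YBR145W), another alcohol dehydrogenase gene, read 10.33, 9.86, 10.50 and 10.60 in the V81G arrays. In the wild-type arrays it read 10.74 and 11.04 on day 1 and 12.00 and 11.81 on day 2. The groups did not overlap and ADH5 fell by 1.07 ± 0.29 (SE), or 2.11-fold, with an adjusted p of 0.0287. The call was lost without V81G 1 or 2 or without wild type 3 or 4 (adjusted p of 0.0576 to 0.0880), and on day 1 alone (-0.80, adjusted p = 0.0797).

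The other 5 fermentation genes did not pass. PDC1, the main pyruvate decarboxylase, differed by -0.05 and ADH1, the main ethanol-forming dehydrogenase, by -0.03, and both were near the ceiling (adjusted p = 0.817 and 0.886). ADH2 (YMR303C), the glucose-repressed isoenzyme that oxidises ethanol, read 10.91 to 11.24 in the V81G arrays and 11.09 to 11.42 in the wild-type arrays, and differed by -0.27 (95% interval -0.56 to 0.03, adjusted p = 0.209). The mitochondrial isoenzyme gene ADH3 differed by -0.24 (adjusted p = 0.293). PDC6, a minor pyruvate decarboxylase gene, differed by 0.16 (adjusted p = 0.584).

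ALD6 (YPL061W), the cytosolic aldehyde dehydrogenase that makes acetate and NADPH, read 11.61, 11.77, 11.75 and 11.36 in the V81G arrays. In the wild-type arrays it read 12.61, 12.63, 13.02 and 12.83. The gap between the groups was wider than the range of either group. ALD6 fell by 1.15 ± 0.15 (SE), or 2.22-fold, with an adjusted p of 7.2e-04, and the difference was -0.93 on day 1 and -1.37 on day 2. Its dimmer probe set, at 9.30 and 9.39, differed by -0.09 ± 0.23 (adjusted p = 0.857), and the average of both probe sets by -0.62 (adjusted p = 0.0147).

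Of the genes for glycerol-3-phosphate dehydrogenase, GPD1 (YDL022W), which responds to osmotic stress, varied most. It read 13.07 and 13.24 in the V81G arrays of day 1 and 11.59 and 11.78 in those of day 2. The wild-type arrays read 13.85, 13.56, 13.45 and 13.19. The V81G arrays of day 2 were far below all others, while V81G 2 was inside the wild-type range and V81G 1 just under it. Its difference of -1.10 ± 0.37 (SE) missed the threshold (adjusted p = 0.0693), and passed when same-numbered arrays were blocked (adjusted p = 0.0224), when the day was blocked (0.0051), after median centring (0.0464), on day 2 alone (0.0046), without V81G 1 (-1.31, adjusted p = 0.0445) or without V81G 2 (-1.37, adjusted p = 0.0277). Without any 1 of the other 6 arrays it did not pass, the smallest difference being -0.82, with adjusted p-values up to 0.178. GPD2 (YOL059W), the isoenzyme gene that responds to lack of oxygen, differed by -0.26 ± 0.18 (SE, adjusted p = 0.406).

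In the pentose phosphate pathway 4 of 8 genes fell (50.0%) and the others did not pass, with a median difference of -0.58. Of all genes 12.3% fell, with a median of -0.08. With only probe sets above the 40th percentile fitted, 18.2% of genes fell. In its oxidative branch GND1 (YHR183W), the main 6-phosphogluconate dehydrogenase and a source of NADPH, read 13.86, 13.97, 14.11 and 14.08 in the V81G arrays. The wild-type arrays read 14.57, 14.40, 14.64 and 14.69, with no overlap. GND1 fell by 0.57 ± 0.12 (SE), or 1.48-fold (adjusted p = 0.0110), and the difference was -0.57 on each day. GND1 lies on chromosome VIII, where 107 of 259 genes were called higher and 5 lower.

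SOL3 (YHR163W), a 6-phosphogluconolactonase gene also on chromosome VIII, differed by -0.07 (95% interval -0.34 to 0.20, adjusted p = 0.784). ZWF1 (YNL241C), glucose-6-phosphate dehydrogenase, the entry to the pathway, read 12.77 and 12.82 in the V81G arrays of day 1 and 12.14 and 11.88 in those of day 2, against 12.73 to 13.05 in the wild-type arrays. Only the V81G arrays of day 2 were below the wild-type range, and the difference of -0.50 ± 0.22 (SE) did not pass (adjusted p = 0.160).

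In the non-oxidative branch TAL1, TKL1 and RPE1 fell among 5 genes (60%, against 12.3% of all genes). TAL1 (YLR354C), transaldolase, read 12.19, 12.16, 12.25 and 12.19 in the V81G arrays and 13.16, 13.06, 13.11 and 13.43 in the wild-type arrays. The V81G arrays lay close together below all wild-type arrays, and TAL1 fell by 0.99 ± 0.12 (SE), or 1.99-fold (adjusted p = 5.95e-04). TKL1 (YPR074C), the main transketolase, read 12.84, 12.98, 13.00 and 13.08 against 13.39, 13.61, 13.72 and 13.85. These ranges were also apart, and TKL1 fell by 0.67 ± 0.13 (SE), or 1.59-fold (adjusted p = 0.0077).

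RPE1 (YJL121C), ribulose-5-phosphate epimerase, read 12.41, 12.56, 12.80 and 12.85 in the V81G arrays and 13.30, 13.33, 12.94 and 13.39 in the wild-type arrays. The groups did not overlap, though V81G 4 and wild type 3 were close, and RPE1 fell by 0.59 ± 0.15 (SE, adjusted p = 0.0263). The call was lost without V81G 1 or 2 or without wild type 1, 2 or 4 (adjusted p of 0.0554 to 0.0735) and after quantile normalization (adjusted p = 0.0604). The difference of RPE1 was -0.83 on day 1 and -0.34 on day 2, which did not pass alone (adjusted p = 0.243). RKI1 (YOR095C), ribose-5-phosphate isomerase, differed by 0.002 (95% interval -0.41 to 0.42, adjusted p = 0.997).

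TKL2 (YBR117C), the second transketolase gene, read 11.53 and 11.26 in the V81G arrays of day 1 and 10.61 and 10.63 in those of day 2, against 11.23 to 12.23 in the wild-type arrays. Its difference of -0.63 ± 0.27 (SE) did not pass (adjusted p = 0.147), nor did those of its 2 dimmer probe sets, -0.71 and -0.47 (adjusted p = 0.0960 and 0.190). PGM1 (YKL127W), a phosphoglucomutase gene that links glucose 6-phosphate to glucose 1-phosphate, differed by -0.31 (95% interval -0.63 to 0.01, adjusted p = 0.186).

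**Figure D2:**
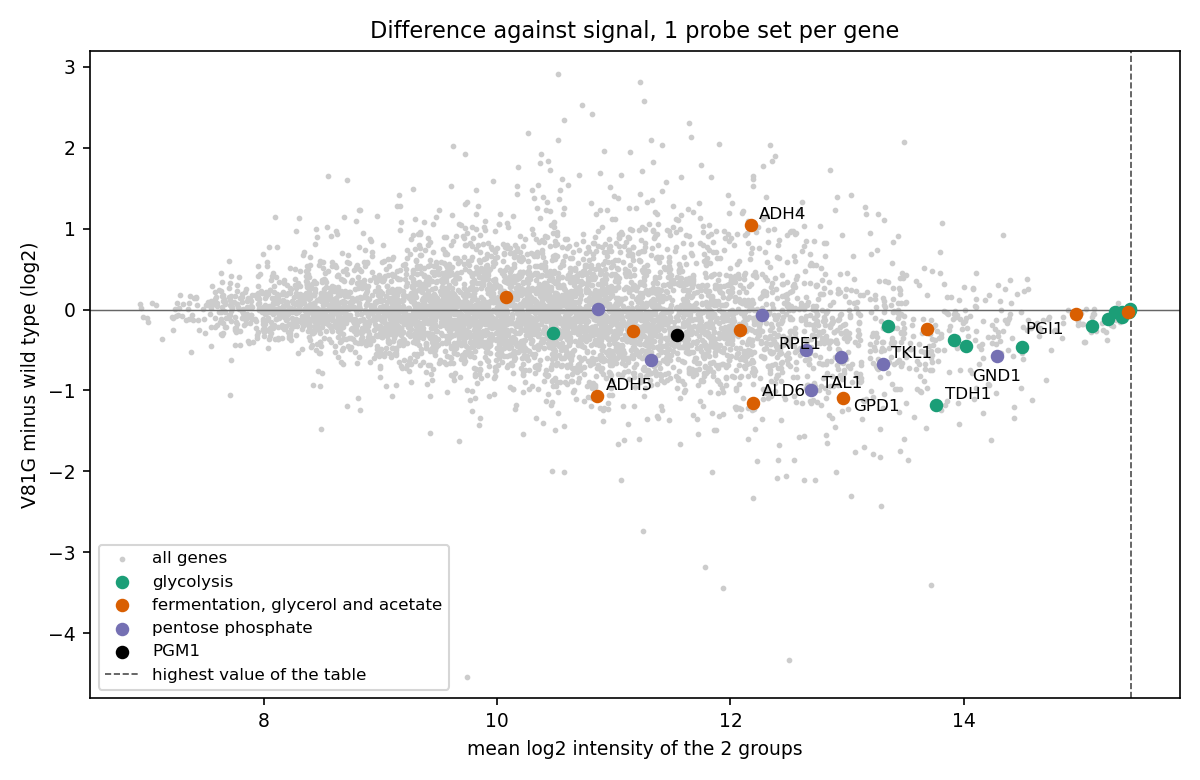
The horizontal axis shows the mean log2 intensity of the 2 groups and the vertical axis the difference, V81G minus wild type, for all 5656 genes in grey and for the measured genes in colour. Genes past the threshold and GPD1 are named. Glycolytic genes crowd at the dashed line, the highest value of the table, where differences are close to 0, while every pentose phosphate gene lies to the left of it, with RKI1 the dimmest and GND1 the brightest.

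Differences were also taken within each hybridization day. All 9 called genes had the same sign on both days, which is no independent support because they were called from both days together. An interaction term between group and day passed for none of the 33 (adjusted p under 0.05, limma), where 117 of 9275 probe sets (1.26%) passed. At an unadjusted p under 0.05 it held for 6 of the 33 (18.2%), against 18.9% of all genes. These were GPD1, TKL2, PYK2, TDH1, ZWF1 and GPD2, and in all 6 the difference was more negative on day 2, as it was for 74.4% of all genes with such a p. For GPD1 the differences were -0.56 on day 1 and -1.64 on day 2 (interaction adjusted p = 0.0802). For TKL2 they were -0.002 and -1.25 (adjusted p = 0.131), and 1 of its dimmer probe sets passed the interaction test, at -0.01 and -1.42 (adjusted p = 0.0497).

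**Figure D3:**
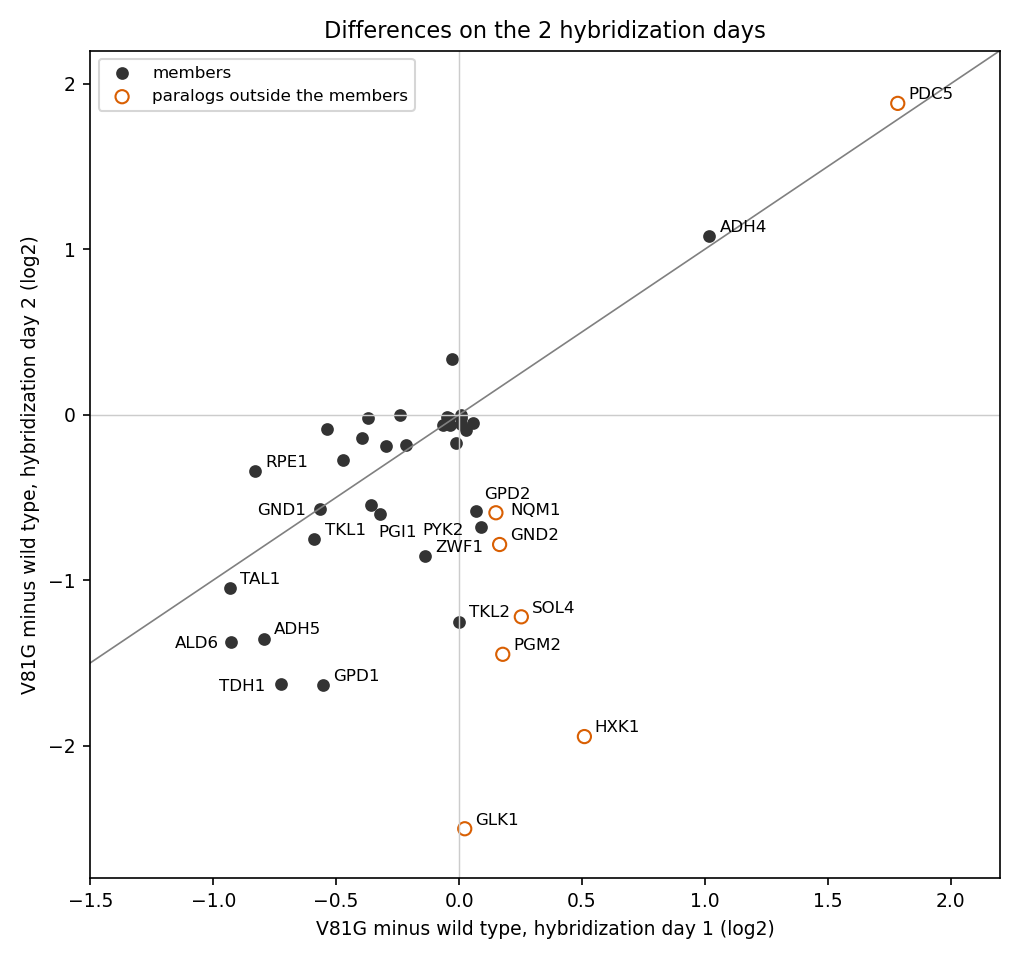
Each point is 1 gene, with its difference (V81G minus wild type, log2) on hybridization day 1 on the horizontal axis and on day 2 on the vertical axis, and the diagonal marks equal differences. ADH4, GND1 and TAL1 lie close to the diagonal, while GPD1, TKL2 and the paralogs GLK1 and HXK1 lie far below it.

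Unequal change within isoenzyme pairs was tested on the ratio of the 2 genes within each array, with an exact two-sided permutation test over the 8 arrays. Of 20 listed pairs 18 could be measured, the other 2 needing TDH2. With 70 arrangements the smallest p the test allows is 0.0286, and 5 pairs reached it: TDH1/TDH3, ADH4/ADH1, ADH5/ADH1, PDC5/PDC1 and NQM1/TAL1. After Benjamini-Hochberg adjustment over the 18 pairs the p of each was 0.103, so no pair passed. With this smallest p a pair could pass only if at least 11 of the 18 reached it, so the miss says little of the single pairs, and the ratios below are given as values.

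ADH4 relative to ADH1 was 1.08 ± 0.06 (SE) higher in the V81G arrays, where single arrays ranged from 0.99 to 1.17 above the wild-type mean, against -0.06 to 0.12 in the wild-type arrays. ADH5 relative to ADH1 was lower by 1.04 ± 0.33, and TDH1 relative to TDH3 by 1.18 ± 0.22 (SE). The partner genes ADH1 and TDH3 were at or near the ceiling, so these ratio changes are nearly the changes of ADH4, ADH5 and TDH1 alone. NQM1, the paralog of TAL1, differed by -0.22 (adjusted p = 0.449) where TAL1 fell, and the ratio was higher by 0.77 ± 0.19 (SE).

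PDC5, the pyruvate decarboxylase gene known to be induced when thiamine is short or PDC1 is lost, rose by 1.83 ± 0.13 (SE, adjusted p = 4.3e-05), from 11.44 ± 0.17 in the wild-type arrays to 13.27 ± 0.13 (SD, n = 4) in the V81G arrays. Relative to PDC1 it was 1.88 ± 0.13 higher. In the other pairs the exact test gave p of 0.0571 or more. The ratio of ENO1 to ENO2 moved by 0.004 ± 0.08, but ENO1 was at its array's maximum on 7 arrays. The ratio of PFK1 to PFK2, subunits of 1 enzyme, moved by 0.08 ± 0.13 (exact p = 0.514), and that of TKL2 to TKL1 by 0.04 ± 0.33 (SE, exact p = 0.943).

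**Figure D4:**
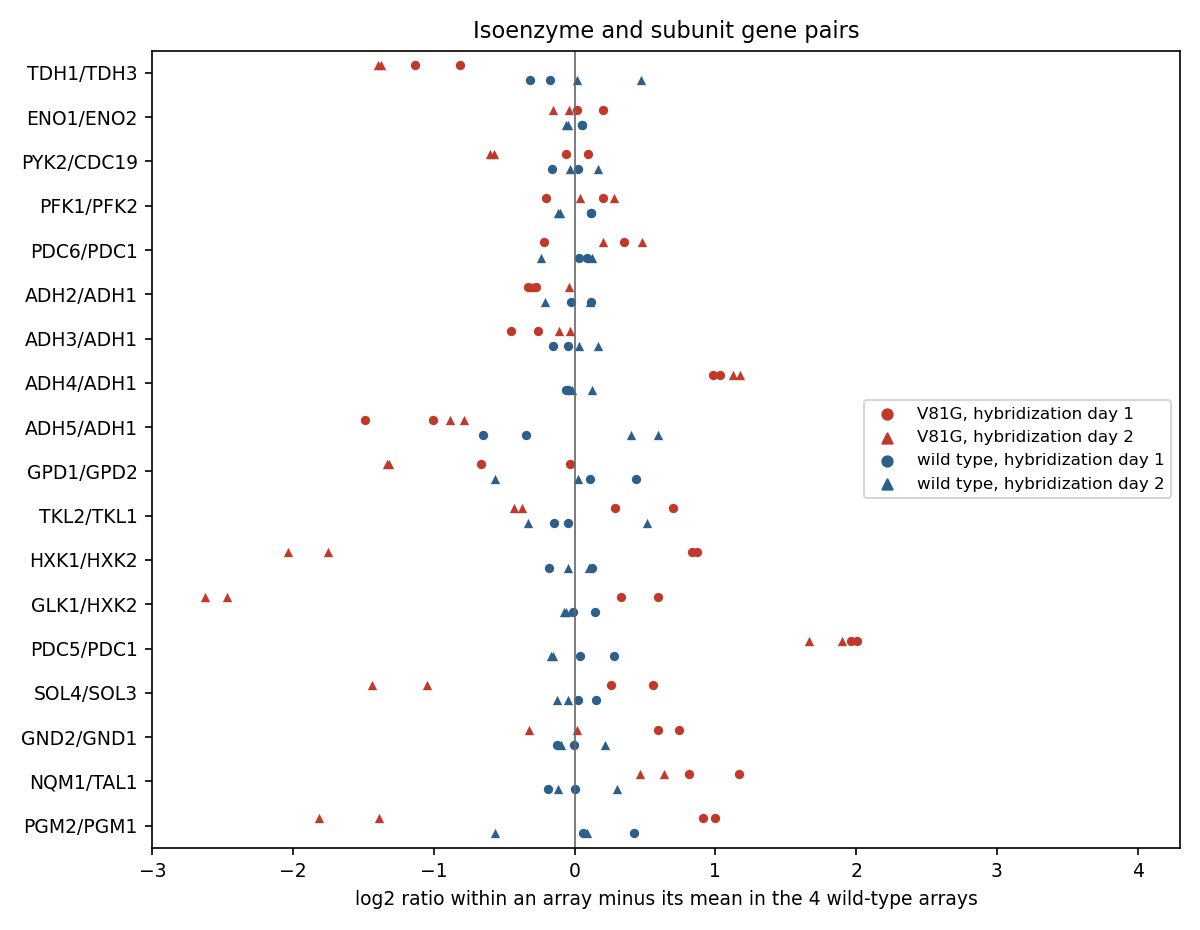
The horizontal axis shows the log2 ratio of 2 genes within an array, minus the mean of that ratio in the 4 wild-type arrays, for 18 pairs. Colour marks the group and shape the hybridization day. The V81G points stand clear of the wild-type points for ADH4/ADH1 and PDC5/PDC1, and split by day for HXK1/HXK2, GLK1/HXK2, SOL4/SOL3 and PGM2/PGM1.

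Of 20 paralogs and other related enzyme genes outside the members, 4 passed the interaction test between group and day, where 1.26% of all probe sets passed. All 4 had a more negative difference on day 2, as had 74.4% of all genes with an unadjusted interaction p under 0.05. GLK1, glucokinase, differed by 0.02 on day 1 and -2.50 on day 2, and HXK1, hexokinase 1, by 0.51 and -1.95. Their adjusted p-values were 0.0028 and 0.0068, and that of HXK2 was 0.453. The other 2 were SOL4, the paralog of SOL3, at 0.25 and -1.22 (adjusted p = 0.0195), and EMI2, a paralog of GLK1, at -0.08 and -2.10 (adjusted p = 0.0072). PGM2, the main phosphoglucomutase, differed by 0.18 and -1.45 and GND2 by 0.17 and -0.78 without passing it (adjusted p = 0.110 and 0.118), and ADH6 ran the other way, at -1.19 and -0.30 (adjusted p = 0.113). Over both days GLK1, HXK1, SOL4, EMI2, PGM2 and GND2 did not pass the group comparison (adjusted p of 0.170 to 0.534), and EMI2 passed once the day was blocked (adjusted p = 0.0452).

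Of 75 other genes around these pathways, in 6 lists, 7 were called higher (9.33%) and 10 lower (13.3%), close to the 9.21% and 12.3% of all genes. Among the 20 paralogs and other related enzyme genes outside the members PDC5 rose (5%) and ADH6 and SHB17 fell (10%). ADH6, an NADPH-dependent alcohol dehydrogenase gene, differed by -0.74 ± 0.21, and SHB17, sedoheptulose bisphosphatase, by -0.47 ± 0.13 (SE). The call of ADH6 was lost without V81G 1 or 2 or without any 1 of the wild-type arrays (adjusted p of 0.0562 to 0.110). It was lost too after quantile normalization (adjusted p = 0.0658) and on day 2 alone (0.253). The call of SHB17 was lost without V81G 1, 3 or 4 or without wild type 1 or 4 (adjusted p of 0.0544 to 0.0729). Day 1 alone (adjusted p = 0.119) and day 2 alone (0.113) lost it too.

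Of 12 genes of gluconeogenesis and anaplerosis 3 rose (25%, against 9.21% of all genes) and 1 fell (8.33%, against 12.3%). PCK1, phosphoenolpyruvate carboxykinase, rose by 0.88 ± 0.20 (adjusted p = 0.0127), MDH2, the cytosolic malate dehydrogenase gene, by 0.86 ± 0.20 (adjusted p = 0.0149) and GID8, of the ligase that degrades gluconeogenic enzymes, by 0.73 ± 0.20 (SE, adjusted p = 0.0308). FBP1, fructose-1,6-bisphosphatase, differed by -0.12 (adjusted p = 0.563), with both group means under the 20th percentile of probe-set means. CAT8, the activator of gluconeogenic genes, fell by 1.09 ± 0.17 (SE, adjusted p = 0.0024) to a mean of 8.26, under the 20th percentile, where background can shrink a difference. The call of GID8 was lost without V81G 1, 2 or 4 or without wild type 2 or 3 (adjusted p of 0.0617 to 0.0817). Day 1 alone (adjusted p = 0.0933) and day 2 alone (0.119) lost it too.

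Among 11 genes of acetate and acetyl-CoA metabolism 3 fell (27.3%, against 12.3% of all genes) and 1 rose (9.09%, against 9.21%). ACS2, the acetyl-CoA synthetase of glucose-grown cells, fell by 1.04 ± 0.16 (adjusted p = 0.0021), ACH1, a mitochondrial CoA-transferase gene, fell by 0.88 ± 0.18 (adjusted p = 0.0094) and ALD5, a mitochondrial aldehyde dehydrogenase gene, fell by 0.87 ± 0.20 (SE, adjusted p = 0.0156). ATF1, an alcohol acetyltransferase gene, rose by 1.72 ± 0.12 (SE, adjusted p = 3.6e-05). ALD4, the main mitochondrial aldehyde dehydrogenase, differed by -0.34 on day 1 and -2.26 on day 2 (interaction adjusted p = 0.0195), and by -1.30 ± 0.40 (SE) over both days (adjusted p = 0.0520), and passed once the day was blocked (adjusted p = 0.0201). Of 9 genes of glycerol synthesis and use 1 was called, lower (11.1%, against 12.3% of all genes). This was GUT2, the mitochondrial glycerol-3-phosphate dehydrogenase, which fell by 1.19 ± 0.22 (SE, adjusted p = 0.0057). Its call was lost on day 1 alone (-0.75, adjusted p = 0.135).

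Of 10 genes of NADPH supply and pentose products IDP2 and STB5 rose (20%, against 9.21% of all genes) and PRS4 fell (10%, against 12.3%). IDP2, the cytosolic NADP-dependent isocitrate dehydrogenase gene, rose by 0.69 ± 0.13 (adjusted p = 0.0055). PRS4, of ribose-phosphate pyrophosphokinase, fell by 0.59 ± 0.15 (SE, adjusted p = 0.0273), a call lost without V81G 1 or 2 or without wild type 1, 3 or 4 (adjusted p of 0.0652 to 0.0730). It was lost on day 1 alone too (adjusted p = 0.0617). STB5, an activator of pentose phosphate genes that lies on chromosome VIII, rose by 0.50 ± 0.15 (SE, adjusted p = 0.0475). That call was lost in 13 of 18 alternatives. It was lost without any 1 array but V81G 1 (adjusted p of 0.0575 to 0.112) and when same-numbered arrays were blocked (adjusted p = 0.0742). Quantile normalization (0.0836), median centring (0.0840), a variance trend (0.0564), day 1 alone (0.257) and day 2 alone (0.0681) lost it too.

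Of 13 regulators of glycolytic genes 2 fell (15.4%, against 12.3% of all genes) and none rose (9.21% of all genes). RAP1, which binds upstream of glycolytic and ribosomal protein genes, fell by 0.80 ± 0.17 (SE, adjusted p = 0.0096). Its call was lost on day 2 alone (-0.59, adjusted p = 0.113). ABF1, a general regulatory factor, fell by 0.61 ± 0.16 (SE, adjusted p = 0.0237). That call was lost without V81G 1, 2 or 3 or without wild type 1 or 4 (adjusted p of 0.0572 to 0.0668). It was lost on day 2 alone too (-0.51, adjusted p = 0.185). The glycolytic activator genes GCR1 and GCR2 differed by 0.40 and 0.13 and did not pass (adjusted p = 0.283 and 0.653).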

How the data were processed

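The deposited table holds 1 intensity per probe set and array on a linear scale, from 89.9 to 44207. RMA, a method that corrects background, normalizes between arrays and summarises probes, is named per the submitters' processing notes, without a version. Any later scaling is not stated, and array medians ran from 1098 to 1189. That the scale is linear follows from the range of values, and log2 was computed for all tests.

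After 60 control probe sets were left out, 9275 entered linear models with group as the single term, by lmFit and eBayes of limma 3.58.1 (R 4.3.3), with two-sided tests and Benjamini-Hochberg adjustment over all 9275. The fit was tested on simulated data in which 200 of the 9275 probe sets were changed 2-fold. It called 70% of these, with 9 false calls, so a gene that did not pass may still have changed. Probe sets were named by the platform annotation, with symbols brought up to date by gene ID in the RefSeq table of assembly R64: 6504 probe sets had 1 symbol, 328 several and 2443 none listed here. Where a gene had several probe sets, the 1 with the highest mean of the 8 arrays was used. All 33 measured genes lay above the 40th percentile of probe-set means, and 4 arrays per group limit the precision.

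The members, lists and pairs were chosen with earlier results of these data known. All members were named, with the 3 largest called genes of each other list, called regulators and both genes of a pair. GID8, ALD4, ALD5, EMI2, FBP1, GCR1 and GCR2 were named after their values were seen. Deviations of same-numbered arrays from their group means correlated at 0.23 to 0.44. Arrays of different numbers were not compared, and same-numbered arrays share a hybridization day. These values therefore cannot tell a pairing by number from an effect of the day. The replicate number was used as a block only as an alternative. The alternatives tried were other scalings, filters on dim probe sets, a variance trend, blocks, single days, averaged probe sets and leaving out each array.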

Additional observations from a re-analysis of the deposited data

Results flagged for a closer look

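Among 66 groups of 4 arrays (33 genes, both labels) 10 held an array far from the other 3, where chance marks about 1 in 20. That rate is for values free to vary. It does not hold for genes at or near the ceiling, such as TDH3, ENO1 and CDC19, so the 10 cannot be set against it. In the wild-type arrays FBA1 read 15.39 in replicate 1 against 15.26 in each of the others, and GPD2 read 12.46 in replicate 4 against 12.12 to 12.15. TDH3, ENO1 and CDC19 each read 15.42 in wild type 1 against 15.43 in the other 3, and that array's own maximum was 15.42. In the V81G arrays ENO1 read 15.31 and CDC19 15.39 in replicate 4 against 15.43 in the other 3, PFK1 read 13.33 and PDC1 14.87 in replicate 1 against 13.81 to 13.90 and about 14.97, and RKI1 read 11.24 in replicate 3 against 10.71 to 10.77.

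The difference between the groups changed between the hybridization days, by the interaction test in limma, for 5 genes around the pathways and 1 dimmer probe set of a member. Of all probe sets 1.26% passed this test. Because each day held other replicates, a difference between days cannot be told apart from a difference between cultures. The change of the difference from day 1 to day 2 was -2.53 for GLK1, -2.46 for HXK1, -2.02 for EMI2, -1.92 for ALD4, -1.48 for SOL4 and -1.40 for the dimmer TKL2 probe set, with adjusted p-values of 0.0028 to 0.0497. On day 1 both V81G arrays ran on fluidics station 2 and both wild-type arrays on station 1. On day 2 both V81G arrays and wild type 3 ran on station 1 and wild type 4 on station 2. The part of the station was not tested.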

How the results depend on the processing

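With 8 genes called lower, 1 higher and 2, 3 and 4 in glycolysis, fermentation with its branches and the pentose phosphate pathway, leaving out 1 array gave 5 to 8 lower, 1 higher, 1 to 3, 2 to 3 and 3 to 4, where 7.81% to 11.9% of all genes were lower and 6.86% to 8.40% higher. The 5 came without wild type 4 (7.81% of all genes). Of the 75 other genes 5 to 6 were then higher and 6 to 9 lower. Day 1 alone gave 3 members lower (7.37% of all genes), 0 in glycolysis by limma (2 at an unadjusted p under 0.05), 2 in the pentose phosphate pathway and 4 of the other genes higher (7.13% of all genes). Day 2 alone gave 11 members lower (15.3% of all genes) and 26 of the other genes lower. Quantile normalization left 1 glycolytic gene. The replicate number as a block gave 10 members lower (13.7% of all genes), adding PFK2 and GPD1, and changed no other member's call, while 12 of the other genes were lower. The day as a block gave 10 members (18.3% of all genes) and 17 of the other genes lower.

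ADH4, ALD6 and TAL1 were called in all 18 alternatives, GND1, TKL1 and TDH1 in all but day 1 alone. Of the other genes around the pathways, PDC5, ALD5, ACS2 and ATF1 were called in all 18. MDH2, ACH1, GUT2 and IDP2 lost their calls only on day 1 alone (limma adjusted p = 0.143, 0.106, 0.135 and 0.0728). PCK1 and RAP1 lost theirs only on day 2 alone (adjusted p = 0.0800 and 0.113). No called gene changed sign. Others did, none of them called under these settings: PGK1 (0.0055), ENO2 (0.055) and PDC1 (0.085) after quantile normalization, TDH3 (-0.035) and RKI1 (-0.037) after median centring. Day 1 alone gave PGK1 0.028, ENO1 0.0061, CDC19 0.0059, PYK2 0.090, PDC6 -0.028 and GPD2 0.069, and day 2 alone FBA1 0.00017 and RKI1 -0.053. Leaving out 1 array gave ENO2 -0.056 to 0.025, RKI1 -0.14 to 0.10, ENO1 -0.037 to 0.0028, CDC19 -0.012 to 0.0026 and TDH3 -0.00067 to 0.0045. A limit of 1 in place of 0.5 puts 14 genes near the highest value of the table. For the pairs, 5 had an unadjusted exact p under 0.05 under quantile normalization and with averaged probe sets too, and the adjusted test could hardly pass any at this size. The causes of these changes were not tested. Signal at the ceiling limits what the brightest 10 genes can show.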
